A study of Mus musculus with 8 samples.

Results

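B cell development genes were followed in the thoracic annulus fibrosus, the fibrous outer ring of the intervertebral disc, of WT mice and of ENT1-null mice at 2 and 6 months. The genes are Vpreb1, Igll1, Rag1, Rag2, Dntt, Ebf1, Pax5, Cd79a and Cd79b, 9 genes chosen by name because they act at successive steps from the B cell progenitor to the mature B cell. Each gene was read from 1 probe set assigned to that gene alone, the one with the highest mean of the 8 arrays. Of the 9 genes, 8 could be read in this way, among 22180 genes read in all. The only probe set of Rag1 is also assigned to its neighbour Iftap, so Rag1 has no value here. Rag2 has a further probe set that is likewise shared with Iftap and was not read. Of the 8 genes read, 6 lay above the level used as a filter on dim genes (a mean of 6.21 on the log2 scale, the 30th percentile of all genes read) and entered the test with 15526 genes in all. Vpreb1 and Rag2 lay below that level and are given from a fit with no filter.

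B cells are made in the bone marrow, where progenitors assemble their immunoglobulin genes by cutting and rejoining DNA. The Rag1 and Rag2 proteins make the cuts, and terminal deoxynucleotidyl transferase, the product of Dntt, adds bases at the joins. Vpreb1 and Igll1 together form the surrogate light chain, which pairs with a new heavy chain in the pre-B cell receptor and is turned off as cells mature. Ebf1 and Pax5 are transcription factors that set and hold the B cell identity. Cd79a and Cd79b are the signalling chains of both the pre-B cell receptor and the mature B cell receptor, so they are kept from the progenitor to the mature cell. Dntt and the Rag genes are also used by developing T cells, and Ebf1 is also expressed in stromal and fat cells.

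WT and ENT1-null mice, all of the Black 6 strain, were each sampled at 2 and at 6 months, which gave 4 groups of 2 arrays. ENT1 is a nucleoside transporter of the cell membrane, encoded by Slc29a1, and the ENT1-null mice lack exons 2 to 4 of that gene; no Cre or cell type that would limit the deletion is named in the labels. Each array held RNA from a pool of 5 to 6 thoracic annulus tissues, extracted with Trizol and labelled with biotin from 200 ng of total RNA. Nothing in the labels ties a pool to its own set of mice, so each p-value measures only the spread between pools, which may be technical.

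Array medians ran from 6.77 to 6.82 on the log2 scale, and arrays of the same group correlated at r = 0.991 to 0.992 across the 22180 genes. Slc29a1 was lower on both ENT1-null arrays than on both WT arrays at each age, by a log2 difference of -1.41 ± 0.09 (SE) at 2 months and -1.53 ± 0.09 at 6 months (limma adjusted p = 0.00724 and 0.000354). Whether its probes lie in the deleted exons was not checked. The 14 annulus and cartilage markers had mean log2 levels of 10.03 to 10.99 on all arrays. Whether this signal came from annulus alone was not tested. Fewer cells of a type and less RNA per cell cannot be told apart in such bulk tissue.

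The promoters of the genes that the results turn on are shown first, as the 250 bases before the transcription start from RefSeq (GRCm38.p6), 5′ to 3′ on the strand of the gene. Capitals mark matches, on either strand, of CCCNNGNG and of the narrower CCCNNGGG, forms of the motif bound by early B cell factors such as Ebf1. Igll1 and Vpreb1 are neighbours on the minus strand of chromosome 16, 4.42 kb apart, and Cd79a lies on the plus strand of chromosome 7. The windows are chr16:16863986-16864235 for Igll1, chr16:16869256-16869505 for Vpreb1 and chr7:24897247-24897496 for Cd79a.
Igll1: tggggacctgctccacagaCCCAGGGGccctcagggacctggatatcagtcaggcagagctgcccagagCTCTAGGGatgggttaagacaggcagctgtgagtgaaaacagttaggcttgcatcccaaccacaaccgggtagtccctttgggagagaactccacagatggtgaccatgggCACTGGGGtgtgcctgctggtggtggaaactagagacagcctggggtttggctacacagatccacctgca
Vpreb1: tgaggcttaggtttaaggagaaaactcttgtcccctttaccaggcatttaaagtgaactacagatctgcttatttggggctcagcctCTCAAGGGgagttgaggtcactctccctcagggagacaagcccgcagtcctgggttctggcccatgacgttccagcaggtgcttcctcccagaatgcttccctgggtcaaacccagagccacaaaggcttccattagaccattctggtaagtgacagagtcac
Cd79a: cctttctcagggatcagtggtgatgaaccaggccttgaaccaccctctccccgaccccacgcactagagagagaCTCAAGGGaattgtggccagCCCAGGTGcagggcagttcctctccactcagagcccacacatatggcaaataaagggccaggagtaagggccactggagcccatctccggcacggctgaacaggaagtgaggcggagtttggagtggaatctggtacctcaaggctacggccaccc
The Igll1 window held CCCNNGGG, the only one of the 8 genes with a promoter entry to do so, against 11.9% of 32536 mouse promoter windows of the same length. CCCNNGNG, which every match of CCCNNGGG also fits, was found in 6 of the 8 (Cd79a, Dntt, Igll1, Pax5, Rag2 and Vpreb1), against 46.2% of all windows. Vpreb1 and Cd79a held the same 8 letters on the strand shown, ctcaaggg, which occur on either strand in 1.02% of all windows; that string was picked after the matches were seen. The E box CANNTG, bound by E2A among many factors, was found in all 8 genes and in 66.2% of all windows. Ebf1 has 2 windows and matched only in window 2. The octamer ATTTGCAT was found in none of the 8 and in 1.62% of all windows. A match is only a match of letters, and no binding was measured.

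Vpreb1 has a close relative, Vpreb2, 1110 kb away on the same chromosome, and a stretch that their promoter windows share is shown because it sets the copies side by side. These 106 bases (chr16:16869256-16869361, minus strand, for Vpreb1 and chr16:17980315-17980420, plus strand, for Vpreb2) were identical at 104 positions, or 98.1%. They are the end of the Vpreb1 window next to its annotated start but the far end of the Vpreb2 window, so the E box they share began at -88 from the start in Vpreb1 and at -232 in Vpreb2. Capitals mark the 2 positions that differ.
Vpreb1: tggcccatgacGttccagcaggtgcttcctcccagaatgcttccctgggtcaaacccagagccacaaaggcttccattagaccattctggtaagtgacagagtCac
Vpreb2: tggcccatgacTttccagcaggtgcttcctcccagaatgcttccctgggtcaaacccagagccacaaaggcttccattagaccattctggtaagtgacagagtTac
Each gene has a probe set assigned to it alone. Neither the transcripts nor the probes of the pair were compared, so how far the probe sets separate the copies was not tested, and their values are uncertain.

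The first question was whether B cell development genes differed between ENT1-null and WT annulus at 6 months. Igll1, Dntt, Pax5, Cd79a and Cd79b were each higher on both ENT1-null arrays than on both WT arrays, by 1.58-fold (Pax5) to 4.45-fold (Igll1), and all passed the test. Ebf1 did not. So 5 of the 6 tested genes rose and none fell, where 21.2% of all tested genes rose and 17.6% fell, or 38.8% in either direction. Dntt passed the filter only through the 6-month ENT1-null arrays, since its mean without them was 6.18, so the 5 of 6 is a description and supports nothing by itself. Of the 8 genes read, 5 were higher without overlap and 1, Rag2, lower, where 28.1% and 36.8% of all 22180 genes were. Among the transcription factors, Pax5 rose and Ebf1 did not. In the surrogate light chain and the recombination genes, those that did not rise were Vpreb1 and Rag2. Both lay below the filter level and no detection calls are given, so whether their probe sets could show a rise was not tested.

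**Figure D1:**
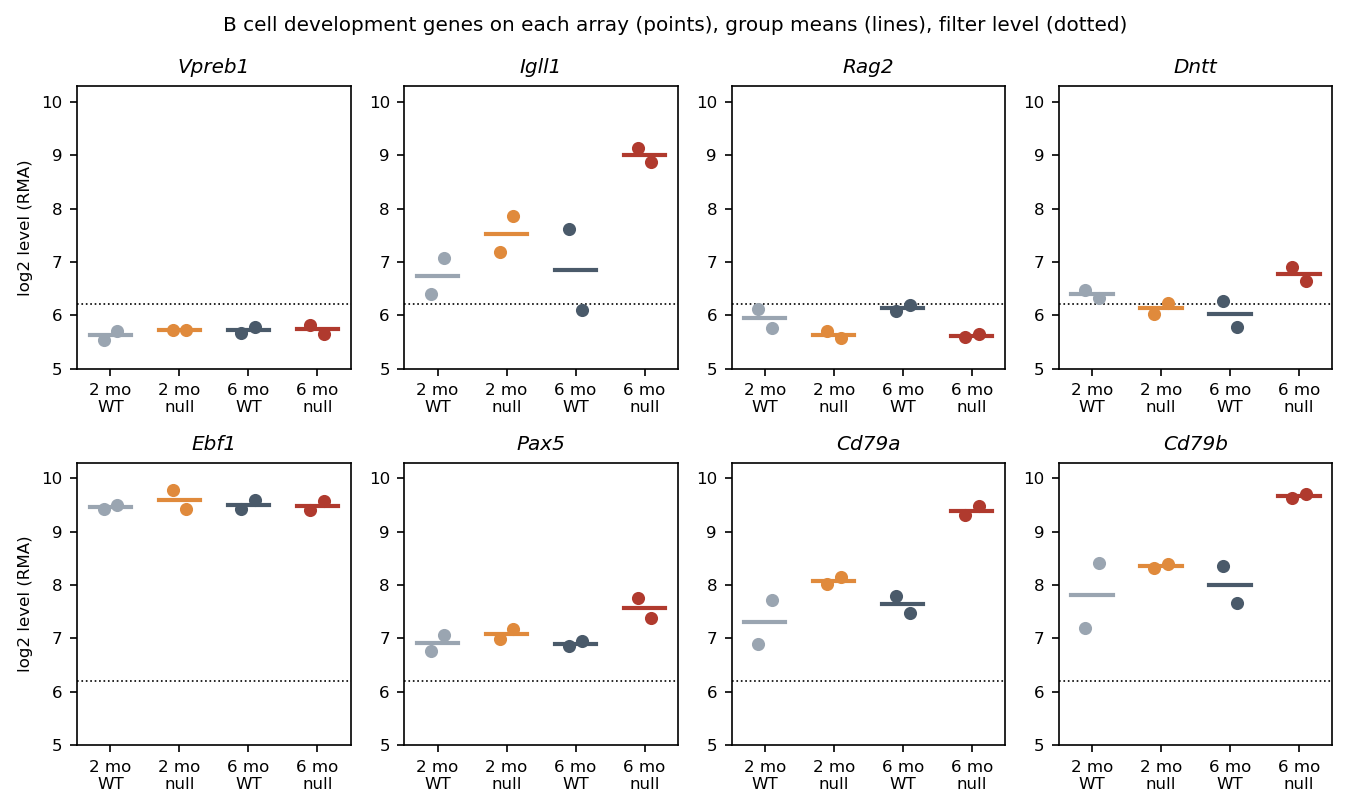
Log2 level (RMA) of the 8 genes on each array (points) with group means (lines) and the filter level (dotted) for 2-month and 6-month WT and ENT1-null annulus. Igll1, Cd79a and Cd79b reached their highest levels on the 6-month ENT1-null arrays (Igll1 at 8.88 and 9.14), whereas Ebf1 stayed between 9.41 and 9.78 and Vpreb1 between 5.54 and 5.82.

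Igll1, the lambda5 part of the surrogate light chain and a marker of pro-B and pre-B cells, had the widest range of the 8 genes, 3.04 log2 units over the arrays. At 6 months its log2 level was 7.62 and 6.10 on the WT arrays and 9.14 and 8.88 on the ENT1-null arrays. The groups did not overlap, although the WT arrays lay far apart (SD 1.08, n = 2) and the ENT1-null arrays close together (SD 0.18, n = 2). The log2 difference was 2.15 ± 0.47 (SE), a 4.45-fold higher level, with limma adjusted p = 0.00965. Without the 6-month WT replicate 2 it was 1.39, and without the 6-month ENT1-null replicate 1 it was 2.02 and no longer passed (adjusted p = 0.0551).

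Vpreb1, the partner of Igll1 in the surrogate light chain, showed no such rise. Its log2 levels at 6 months were 5.66 and 5.79 on the WT arrays and 5.82 and 5.65 on the ENT1-null arrays, so the groups overlapped. Its mean over the 8 arrays, 5.70, stood at the 20.7th percentile of all genes read; the file gives no detection calls, so whether it was above background was not tested. With no filter the log2 difference was 0.013 ± 0.11, with a 95% interval of -0.23 to 0.26 (limma adjusted p = 0.943). Vpreb2, which can take the place of Vpreb1, stood at 7.62 and 7.42 on the WT arrays and at 7.11 and 7.51 on the ENT1-null arrays. Its log2 difference of -0.21 ± 0.14 did not pass (adjusted p = 0.281). Vpreb3, a related chaperone-like protein of B cell progenitors, differed by 0.23 ± 0.13 (adjusted p = 0.203).

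Dntt, which encodes the template-free polymerase of the recombination step, was low but higher in the 6-month ENT1-null tissue. Its log2 level at 6 months was 6.26 and 5.78 on the WT arrays and 6.91 and 6.63 on the ENT1-null arrays, with no overlap. The difference of 0.75 ± 0.17, or 1.69-fold, passed the limma test (adjusted p = 0.012). It no longer passed without the 6-month WT replicate 2 (0.51, adjusted p = 0.0629) or without the 6-month ENT1-null replicate 1 (0.61, adjusted p = 0.0721). T cell and thymocyte markers moved with it: their mean log2 level was 6.73 to 6.83 on the 6-month WT arrays and 7.30 to 7.39 on the 6-month ENT1-null arrays. Of these markers, 5 of 10 tested rose (Cd3e, Cd4, Cd8b1, Cd5 and Lat) and none fell. The shares over all tested genes were 21.2% and 17.6%. Ptcra, the pre-T cell receptor chain that marks thymocytes, differed by -0.12 (adjusted p = 0.318). Their part in the Dntt result was not tested.

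Rag2, the partner of Rag1 in the recombinase, was lower rather than higher on the single-gene probe set. It stood at 6.08 and 6.19 on the 6-month WT arrays and at 5.59 and 5.64 on the 6-month ENT1-null arrays, without overlap and below the filter level throughout. With no filter the log2 difference was -0.52 ± 0.13 (95% interval -0.81 to -0.22, limma adjusted p = 0.0204), where 12.2% of all 22180 genes were called lower. That call was lost without any 1 of the 4 arrays at 6 months (log2 differences of -0.57 to -0.47, adjusted p from 0.0574 to 0.112). Rag1 and Rag2 are adjacent on chromosome 2, 5.72 kb apart, but the shared probe set leaves Rag1 without a value to set beside it. The further probe set of Rag2, also shared with Iftap, was not read, so whether it shows the same direction was not tested.

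The enzymes that rejoin the cut ends are shared with DNA repair in every cell. In a mixed list of 11 tested genes, of end joining or of help to the Rag recombinase, 3 rose, 2 fell and 6 did not pass. Over all tested genes, 21.2% rose and 17.6% fell. The counts of the mixed list lie near these shares, and its median log2 difference was -0.0053 against -0.026 for all tested genes. Those that rose were Hmgb2 (1.90 ± 0.19) and Hmgb1 (0.55 ± 0.09), DNA-bending proteins that assist the Rag recombinase, and Xrcc6 (0.66 ± 0.09), the Ku70 end-binding protein. Their limma adjusted p-values were 0.000474, 0.00216 and 0.00154. Those that fell were Xrcc5, the Ku80 partner of Ku70 (-0.23, adjusted p = 0.0479), and Xrcc4, the cofactor of the ligase (-0.25, adjusted p = 0.0356).

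Pax5, which holds the identity of B cells from the pro-B to the mature stage, rose modestly. Its log2 level at 6 months was 6.86 and 6.95 on the WT arrays and 7.75 and 7.37 on the ENT1-null arrays, without overlap. The difference was 0.66 ± 0.15, or 1.58-fold (limma adjusted p = 0.0125). The call was lost without the 6-month WT replicate 1 (0.62, adjusted p = 0.0619) or the 6-month ENT1-null replicate 1 (0.47, adjusted p = 0.066).

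Ebf1, the factor that acts upstream of Pax5 and that also directs stromal and fat cells, was close to level on every array. It stood at 9.42 and 9.59 on the 6-month WT arrays and at 9.41 and 9.58 on the 6-month ENT1-null arrays. The log2 difference was -0.016 ± 0.13, with a 95% interval of -0.32 to 0.29 (limma adjusted p = 0.936), which does not include a change the size of that of Pax5. Its mean over the 8 arrays stood at the 92.3rd percentile of all genes read. Of 11 stromal and fat cell markers listed because those cells also express Ebf1, 3 rose (Cxcl12, Pparg and Ebf3), Lepr fell and 7 did not pass, with a median log2 difference of 0.44. Pparg, the master factor of fat cells, rose by 0.74 ± 0.13 and Ebf3, a relative of Ebf1 in marrow stroma, by 1.06 ± 0.19. Adipoq (0.37), Fabp4 (0.47), Cebpa (0.49) and Plin1 (-0.23), fat cell markers of the same list, did not pass. Of all tested genes, 21.2% rose and 17.6% fell. Which cells the Ebf1 signal came from was not tested.

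Most other transcription factors of the B lineage moved like Pax5 and not like Ebf1. With the 2 genes above left out, 11 of 14 rose, 2 fell and 1, Irf4, did not pass. Over all tested genes, 21.2% rose and 17.6% fell. The median log2 difference of the 14 was 1.43. Spi1, which encodes PU.1 and is also a factor of neutrophils and macrophages, rose by 1.74 ± 0.18, and Tcf3, which encodes E2A, rose by 0.92 ± 0.11 (limma adjusted p = 0.000503 and 0.000819). Those that fell were Lef1, a factor of pro-B cells and of many other tissues (-0.73 ± 0.09, adjusted p = 0.00094), and Foxo1, which drives the Rag genes and acts in most tissues (-0.70, adjusted p = 0.00379). Foxo1 was picked here after its value was seen.

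Cd79a and Cd79b, which encode the Ig-alpha and Ig-beta signalling chains, rose together. Cd79a stood at 7.80 and 7.48 on the 6-month WT arrays and at 9.31 and 9.48 on the 6-month ENT1-null arrays. Cd79b stood at 8.36 and 7.65 on the WT arrays and at 9.64 and 9.70 on the ENT1-null arrays. Neither gene overlapped between the groups. The log2 difference of Cd79a was 1.75 ± 0.24, or 3.37-fold, and that of Cd79b 1.66 ± 0.37, or 3.17-fold (limma adjusted p = 0.00135 and 0.0102). Cd79a passed under all 16 alternative settings run at 6 months, with differences of 1.59 to 1.91. Cd79b was lost without the 6-month WT replicate 2 (1.31, adjusted p = 0.0661) or the 6-month ENT1-null replicate 2 (1.63, adjusted p = 0.0505).

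Genes that carry or adjust the signal from these chains rose as a group. All 13 tested genes of the receptor's signalling pathway, beyond Cd79a and Cd79b, were called higher at 6 months, with a median log2 difference of 1.63. The share called higher over all tested genes was 21.2%. Dapp1, an adaptor downstream of the lipid kinase, rose by 1.65 ± 0.15, Pik3cd, the delta lipid kinase itself, by 1.32 ± 0.11, and Bank1, a B cell scaffold protein, by 1.94 ± 0.22 (limma adjusted p = 0.000427, 0.000418 and 0.000633). Several of these genes, such as Syk, Btk and Vav1, are also used by myeloid cells.

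**Figure D2:**
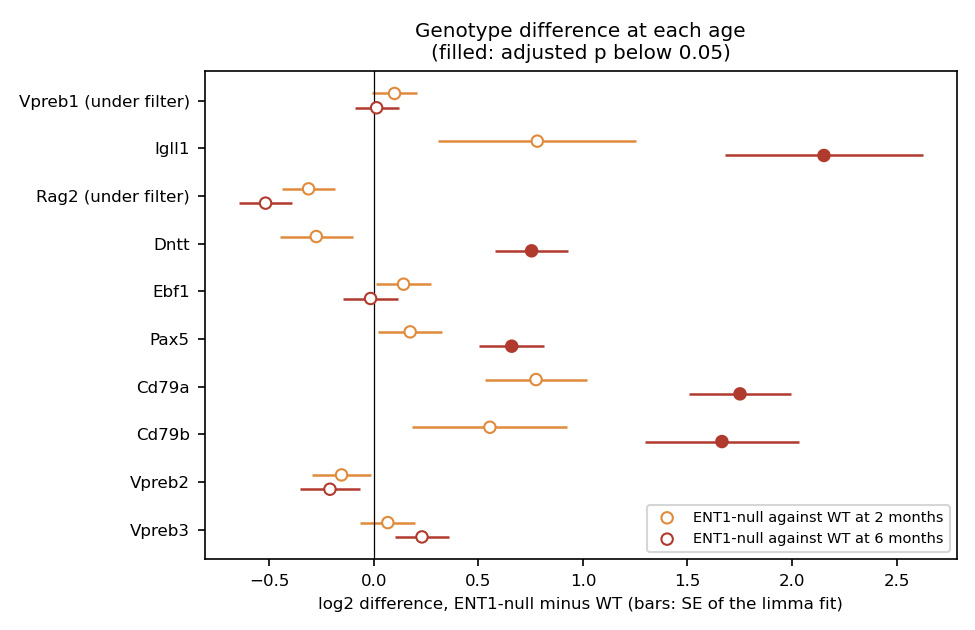
Log2 difference, ENT1-null minus WT, at 2 and 6 months for the 8 genes and the Vpreb1 relatives Vpreb2 and Vpreb3, with bars for the SE of the limma fit and filled points for adjusted p below 0.05; Vpreb1 and Rag2 come from the fit with no filter and are drawn open. At 6 months Igll1 (2.15), Cd79a (1.75) and Cd79b (1.66) lay farthest to the right, Ebf1 (-0.016) and Vpreb1 (0.013) close to 0, and Rag2 (-0.52) to the left.

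Setting progenitor stages against mature stages, some genes of each rose in the 6-month ENT1-null tissue, and so did some genes of plasma cells. Of 12 tested genes of the progenitor stages other than the 8 above, 6 rose and 1 fell (Lef1). The 5 that did not pass were Vpreb2, Vpreb3, Cd24a, Sox4 and Erg. The median log2 difference of the 12 was 0.45. Among genes of mature B cells, 10 of 14 rose, none fell and 4 did not pass, with a median of 0.74. Among plasma cell genes, 4 of 9 rose, 1 fell (Xbp1, -0.31) and 4 did not pass, with a median of 0.28. Over all tested genes, 21.2% rose and 17.6% fell, with a median of -0.026. The lists share some genes with each other and were chosen with earlier results of these data known, so the counts describe them and no test sets one stage against another.

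Kit, the stem cell factor receptor of early progenitors, stood at 6 months 1.50 ± 0.21 log2 units above WT, and Bst1, an enzyme of the surface of stromal cells and early B cells, 1.68 ± 0.24 above (limma adjusted p = 0.0013 and 0.00149). Both are also expressed by other blood cells. In the mature list, Cd37, a tetraspanin of mature lymphocytes, rose by 1.93 ± 0.23 and Fcmr, the receptor for IgM, by 1.04 ± 0.11 (adjusted p = 0.000824 and 0.000533). The genes of that list that did not pass were Fcrl1, Cd40, Ccr7 and Ciita, with log2 differences of 0.19, 0.16, 0.23 and 0.18.

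Jchain, which joins secreted antibodies into polymers, had the largest difference among the plasma cell genes, 3.69 ± 0.57 (limma adjusted p = 0.00206). Slamf7, a surface receptor of plasma cells and other immune cells, rose by 1.25 ± 0.15 and Prdm1, the Blimp-1 factor of plasma cells, by 0.48 ± 0.13 (adjusted p = 0.000887 and 0.0266). Sdc1, the syndecan commonly used to sort plasma cells, differed by 0.057 (adjusted p = 0.715).

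Genes listed for the marrow niche of B cells did not all move one way. Of 6 tested genes, 4 rose and 2 fell, where 21.2% of all tested genes rose and 17.6% fell. Those that rose encode signals or adhesion molecules, and those that fell do not. Vcam1, an adhesion molecule of marrow stroma and vessels, rose by 1.94 ± 0.27, and Tnfsf13b, the survival factor BAFF, by 1.75 ± 0.18 (limma adjusted p = 0.00146 and 0.000502), together with Cxcl12 (1.47) and Kitl (0.82). Lepr, a receptor that marks marrow stroma, fell by 1.00 ± 0.14 (adjusted p = 0.00145), and Foxc1, a transcription factor, differed by -0.46 (adjusted p = 0.0118). Il7, the main growth factor of mouse B cell progenitors, lay under the filter level.

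**Figure D3:**
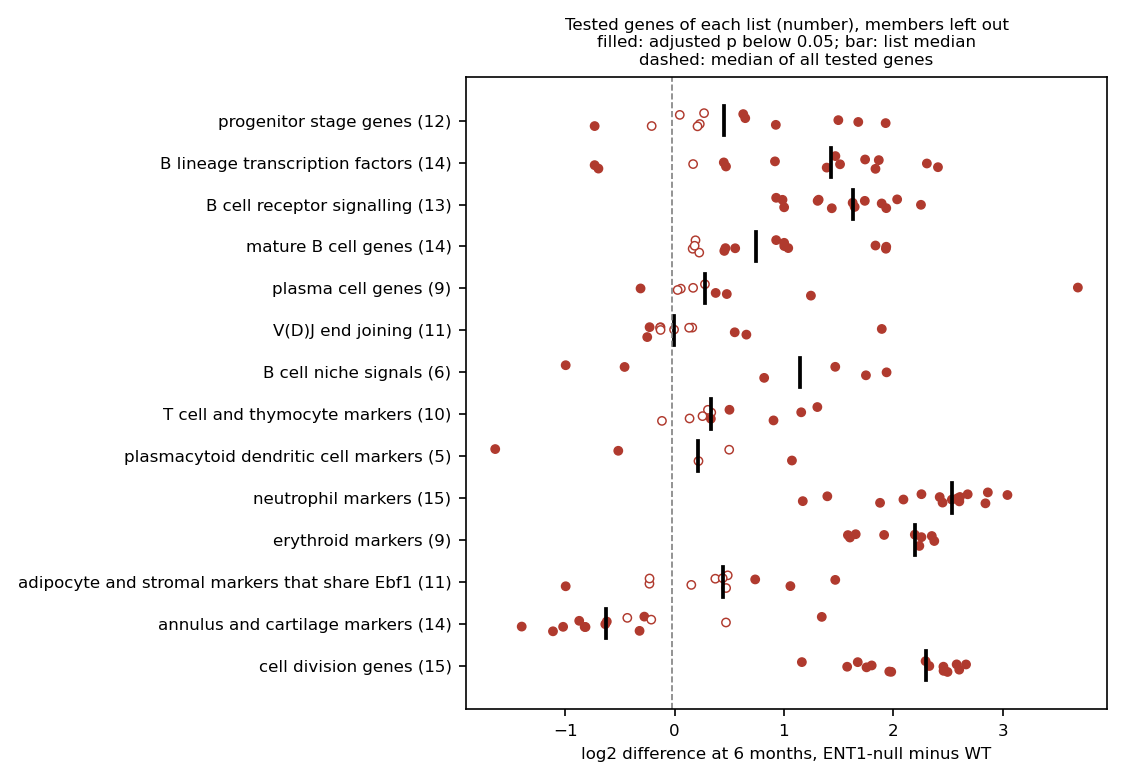
Log2 difference at 6 months, ENT1-null minus WT, of each tested gene in 14 lists, with the 9 B cell development genes left out; filled points passed at adjusted p below 0.05, bars are list medians and the dashed line is the median of all tested genes. B cell receptor signalling (median 1.63) lay wholly to the right, but the neutrophil (2.54), erythroid (2.20) and cell division (2.30) lists lay farther to the right, and the annulus list (-0.63) to the left.

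Neutrophil, erythroid and cell division genes were higher on the same arrays, with list medians above those of the B cell lists. For the counts that follow, 21.2% of all tested genes rose and 17.6% fell. All 15 neutrophil markers rose at 6 months, with a median log2 difference of 2.54; Cd177, a surface protein of neutrophils, rose by 2.68 ± 0.35, Cebpe, the factor of their late maturation, by 2.61 ± 0.42, and Mpo, the enzyme of their first granules, by 2.59 ± 0.51. All 9 tested erythroid markers rose, with a median of 2.20, among them Klf1, the master factor of red cells (1.92 ± 0.20), and all 15 cell division genes rose, with a median of 2.30, among them Mcm4, a subunit of the replication helicase (1.58 ± 0.11). Limma adjusted p-values of these named genes ran from 0.000383 to 0.00582. Of 5 tested markers of plasmacytoid dendritic cells, 1 rose (Ly6d, also a mark of early B cells, 1.07 ± 0.15) and 2 fell (Tcf4, -0.52, and Cox6a2, also a muscle gene, -1.64). Of 14 annulus and cartilage markers, 10 fell, 1 rose (Col1a1) and 3 did not pass, with a median of -0.63; Sox9, the factor of cartilage cells, fell by 1.11 ± 0.09. The part of these cells in the B cell results was not tested.

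The arrays with little of the neutrophil signal were also those with little Igll1, Cd79a and Cd79b. The mean log2 level of the 15 neutrophil markers was 8.84 and 10.04 on the 2-month WT arrays, 10.7 and 11.1 on the 2-month ENT1-null arrays, 10.1 and 8.67 on the 6-month WT arrays and 11.8 and 11.7 on the 6-month ENT1-null arrays. The lowest Igll1 levels, 6.10 and 6.40, came from the same 2 WT arrays as the lowest neutrophil levels, and so did the lowest levels of Cd79a, 6.90 and 7.48, and of Cd79b, 7.20 and 7.65. Across the 8 arrays the neutrophil level correlated with Igll1 at r = 0.946, with Cd79b at 0.919, with Cd79a at 0.91, with Pax5 at 0.817, with Dntt at 0.611, with Vpreb1 at 0.325 and with Rag2 at -0.905. Ebf1 gave r = -0.00999. These are descriptions over arrays that fall into groups, and they carry no test.

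**Figure D4:**
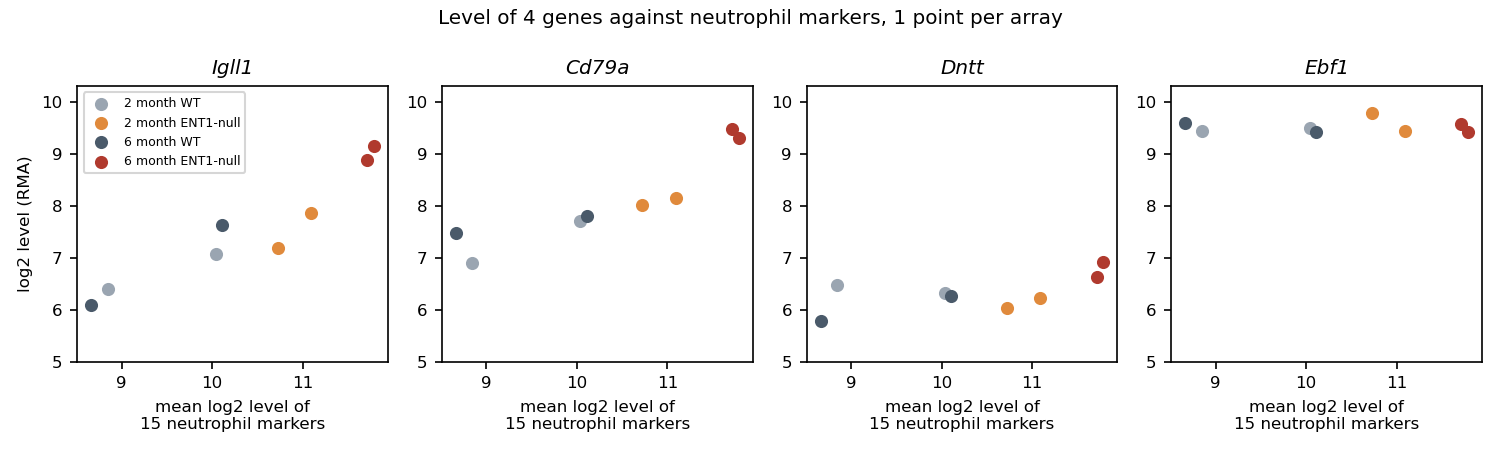
Log2 level (RMA) of Igll1, Cd79a, Dntt and Ebf1 against the mean log2 level of 15 neutrophil markers, 1 point per array, coloured by group. Igll1 and Cd79a are high where the neutrophil level is high (r = 0.946 and 0.91 over 8 arrays), Dntt less closely (0.611) and Ebf1 not (-0.00999).

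At 2 months none of the 6 tested genes passed, where 0.683% of all tested genes did (106 genes, and 3008 at an unadjusted p below 0.05, both by limma). Igll1, Cd79a and Vpreb1 were higher on both ENT1-null arrays than on both WT arrays and Rag2 and Dntt lower on both, without overlap. Among all 22180 genes, 17% were higher without overlap and 31.3% lower.

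Igll1 stood at 6.40 and 7.08 on the 2-month WT arrays and at 7.19 and 7.86 on the ENT1-null arrays, a log2 difference of 0.78 ± 0.47 (limma adjusted p = 0.409). Cd79a stood at 6.90 and 7.71 on WT and at 8.01 and 8.15 on ENT1-null arrays, a difference of 0.78 ± 0.24 (adjusted p = 0.144). It passed without the 2-month WT replicate 2 (1.18, adjusted p = 0.0327) and was 0.37 without the 2-month WT replicate 1. Cd79b overlapped, at 7.20 and 8.42 against 8.32 and 8.40, and its difference of 0.55 ± 0.37 (adjusted p = 0.455) became -0.054 without the 2-month WT replicate 1.

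Dntt was lower at 2 months in the ENT1-null tissue, at 6.48 and 6.33 on WT and 6.03 and 6.23 on ENT1-null arrays, opposite to its order at 6 months, with a log2 difference of -0.28 ± 0.17 (limma adjusted p = 0.433). Rag2 stood at 6.13 and 5.77 on WT and at 5.70 and 5.57 on ENT1-null arrays, lower at both ages, with a difference of -0.31 ± 0.13 in the fit with no filter (adjusted p = 0.305). Pax5 at 6.76 and 7.07 against 6.99 and 7.18 overlapped between the groups (0.17 ± 0.15, adjusted p = 0.578). So did Ebf1, at 9.43 and 9.50 against 9.78 and 9.43 (0.14 ± 0.13, adjusted p = 0.598). The differences of Vpreb1, 5.54 and 5.71 against 5.72 and 5.73, were small (0.099 ± 0.11, adjusted p = 0.707).

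The wider lists also held few calls at 2 months. None of the 12 progenitor, 14 transcription factor, 14 mature B cell, 9 plasma cell, 15 neutrophil or 10 T cell genes tested passed in the limma fit, with median log2 differences of 0.19, 0.39, 0.17, 0.022, 1.48 and -0.043 against -0.044 for all tested genes. Dapp1 was the 1 of 13 receptor signalling genes that passed (0.98, adjusted p = 0.0443). Klf1 of 9 erythroid markers (1.32) and Ube2c (1.57) and Mcm4 (0.74) of 15 cell division genes were also called higher. Cilp2 of 14 annulus and cartilage markers was called lower (-0.80). Limma adjusted p-values of these calls ran from 0.0437 to 0.0443, where 0.683% of all tested genes passed. The mean level of the mature B cell genes was 6.81 to 7.10 on WT and 7.19 to 7.20 on ENT1-null arrays, and that of the progenitor genes 7.54 to 7.75 and 7.87 to 7.95.

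The test of whether the genotype difference itself changed between 2 and 6 months passed for none of the 6 genes, where 4.45% of all tested genes passed (691 genes, and 4186 at an unadjusted p below 0.05, both by limma). So a difference that passed at 6 months and not at 2 months is not shown to differ between the ages for any of these genes. Dntt came nearest, since its difference was 1.03 ± 0.25 larger at 6 months (adjusted p = 0.0551), and it passed without the 6-month WT replicate 1 (1.27, adjusted p = 0.0436). The change was 1.37 ± 0.67 for Igll1, 1.11 ± 0.52 for Cd79b, 0.98 ± 0.34 for Cd79a, 0.49 ± 0.22 for Pax5 and -0.16 ± 0.19 for Ebf1, with adjusted p from 0.123 to 0.639. Rag2 changed by -0.21 ± 0.18 with no filter (adjusted p = 0.579).

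The age comparisons use the same arrays as the genotype comparisons and are not independent of them. In WT annulus none of the 6 genes passed between 2 and 6 months, and none of all 15526 tested genes did (0%, with 2067 at an unadjusted p below 0.05, both by limma). The log2 difference, 6 minus 2 months, was 0.34 ± 0.24 for Cd79a, 0.20 ± 0.37 for Cd79b, 0.12 ± 0.47 for Igll1, -0.0086 for Pax5, 0.044 for Ebf1 and -0.39 ± 0.17 for Dntt. Dntt was lower on both 6-month than on both 2-month WT arrays, a pattern that 29.5% of all 22180 genes showed, and the other 7 genes overlapped between the ages.

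In ENT1-null annulus, Cd79a, Cd79b and Dntt were higher at 6 than at 2 months, 3 of the 6 tested genes, where 22.2% of all tested genes passed and 11.9% rose. Since Dntt passed the filter only through the 6-month ENT1-null arrays, the 3 of 6 too is a description only. Cd79a rose by 1.31 ± 0.24, from 8.01 and 8.15 to 9.31 and 9.48, and Cd79b by 1.31 ± 0.37, from 8.32 and 8.40 to 9.64 and 9.70, each 2.48-fold (limma adjusted p = 0.00956 and 0.0415). Dntt rose by 0.64 ± 0.17, from 6.03 and 6.23 to 6.91 and 6.63, or 1.56-fold (adjusted p = 0.0355). The arrays of Igll1 (1.49 ± 0.47, adjusted p = 0.061) and Pax5 (0.48 ± 0.15, adjusted p = 0.064) did not overlap either, but these genes did not pass; 25.8% of all 22180 genes were higher without overlap. Ebf1 differed by -0.11 ± 0.13 (adjusted p = 0.593). With no filter, Vpreb1 differed by 0.016 ± 0.11 and Rag2 by -0.017 ± 0.13, and both overlapped between the ages (adjusted p = 0.954 and 0.96).

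These age calls depended on single arrays and, for Cd79b, on other settings. The Cd79a call was lost without the 2-month ENT1-null replicate 1 (1.25, limma adjusted p = 0.0591) or the 6-month ENT1-null replicate 2 (1.23, adjusted p = 0.061). The Cd79b call was lost in 8 of 16 alternative settings, among them no filter (1.31, adjusted p = 0.0518), a second quantile normalization (1.25, adjusted p = 0.0514), the replicate block (1.31, adjusted p = 0.0595) and trend and robust (1.31, adjusted p = 0.0928). Without any 1 of the 4 ENT1-null arrays Cd79b (1.27 to 1.35, adjusted p from 0.115 to 0.157) and Dntt (0.50 to 0.78, adjusted p from 0.0649 to 0.173) no longer passed. Igll1 passed at an unchanged 1.49 without either 6-month WT array (adjusted p = 0.0142 each), and Pax5 passed without the 6-month ENT1-null replicate 2 (0.67, adjusted p = 0.0492). Among the wider lists, 12 of 13 receptor signalling genes, 9 of 14 mature B cell genes and 6 of 12 progenitor genes rose between the ages in ENT1-null tissue, with median log2 differences of 0.95, 0.61 and 0.37 against -0.0049 for all tested genes. Of the 15 neutrophil markers 1 rose, with a median of 0.82, and 8 of 9 erythroid markers rose, with a median of 1.09. The share that rose over all tested genes was 11.9%. The part of the neutrophil and erythroid markers in the B cell results was not tested.

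The levels of Cd79a and Cd79b followed each other over the 8 arrays (r = 0.979), and Igll1 followed both (r = 0.949 with Cd79b and 0.936 with Cd79a), although Igll1 belongs to the progenitor and Cd79a and Cd79b to every stage. Pax5 followed Cd79a at r = 0.898, Dntt followed Igll1 at 0.765 and Cd79a at 0.611, and Rag2 ran the other way (-0.758 with Igll1). Dntt followed the T cell marker level more closely (r = 0.883) than the neutrophil level given above. Cd79a followed the mature B cell level at r = 0.992. It followed the progenitor level nearly as closely (0.981), and likewise the erythroid (0.972) and cell division (0.964) levels. All these values come from the same 8 arrays, whose groups differ, and are descriptions without a test.

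The genes whose levels over the 8 arrays were most like each of these were found among 13823 tested named genes by Pearson's r. For Cd79a they were Cd180 (0.998), Clec4a3 (0.998) and Blnk (0.997), with 1812 genes at r above 0.9. For Igll1 they were Psmb5 (0.997), Spn (0.994) and Ipcef1 (0.99), with 1351 genes above 0.9, and for Cd79b Mtf1 (0.988), Plin2 (0.987) and F2rl3 (0.986), with 1352. For Pax5 they were Arrdc4 and Dcstamp (both 0.991) and Nme4 (0.987), with 728 genes above 0.9. Dntt was most like Rufy1 (0.975), Tstd3 (0.971) and Rnf130 (0.967), with 68, and Rag2 most like Vps37a (0.986), Stag1 (0.975) and Ephx2 (0.953), with 58. Ebf1 and Vpreb1 each had 1 gene above 0.9, Vsig4 (0.937) and Cab39 (0.915). So the patterns of Igll1, Cd79a and Cd79b were shared with many genes. Ebf1 and Vpreb1 ranged over only 0.37 and 0.29 log2 units on the 8 arrays, so their few matches say little about a pattern.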

How the data were processed

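RNA of 8 pools of thoracic annulus fibrosus was measured on 1-colour Affymetrix arrays. Per the submitters' processing notes the authors made the values by RMA, which corrects background, equalizes the distributions of the arrays and condenses each probe set to 1 value; what the authors deposited is log2 expression. The sources used here give neither the version of RMA nor the build of the array design. With equalized distributions, values show change relative to the other genes. Of 41345 probe sets, 23521 had 1 gene symbol, 1814 several and 16010 none; each gene was read from its single-gene probe set of highest mean.

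Groups were taken from the labels. Genes with a mean above the 30th percentile entered a limma 3.58.1 fit (R 4.3.3) of 4 group means with lmFit and eBayes (4 residual degrees of freedom), and p-values were adjusted by Benjamini-Hochberg over 15526 genes; a call is an adjusted p below 0.05. There were 5 contrasts: genotype at each age, their difference, and age in each genotype. The fit was tested on simulated data. The number of arrays limits the precision.

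The genes and the 14 lists were chosen with earlier results of these data known. Named genes were the members, Slc29a1, Vpreb2 and Vpreb3, the 3 genes of each list with the largest moderated statistic at 6 months, and the 3 genes most correlated with each member; any other gene was named after its value was seen. Alternatives dropped the filter or raised it to the 50th percentile, repeated the quantile normalization, centred arrays on their medians, used all probe sets, added a replicate block, set trend and robust in eBayes, fitted only the groups compared, called at an adjusted p below 0.1, or left out each array in turn. Motifs (5) were searched on both strands of 250 bases before each start in the RefSeq promoter table (GRCm38.p6); Cd79b has no entry there. Gene positions come from the same build.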

Additional observations from a re-analysis of the deposited data

Results flagged for a closer look

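The order of the Dntt arrays differed between the ages. Both ENT1-null arrays lay below both WT arrays at 2 months, as for 31.3% of all 22180 genes. They lay above them at 6 months, as for 28.1%. The 2-month difference did not pass (-0.28, limma adjusted p = 0.433). The difference of the differences was 1.03 on the log2 scale (limma adjusted p = 0.0551, which did not pass, and 0.0746 with no filter). Dntt passed the filter only through the 6-month ENT1-null arrays. A change of direction was thus not shown.

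Over all genes the genotype difference itself differed between 6 and 2 months for 691 in the limma fit. Among these were 14 of the genes named by their statistic at 6 months. It was larger at 6 months by 1.22 log2 units for Pik3cd (adjusted p = 0.0378), 0.71 for Fcmr (0.0477) and 0.73 for Xrcc6 (0.0397). Of 10 tested T cell markers 4 passed and 6 did not; those that passed were Cd3e (1.16, adjusted p = 0.0383), Cd4 (1.04, 0.0384), Lat (0.84, 0.0494) and Cd8b1 (0.95, 0.0397). Of 15 cell division genes 3 passed, Cenpf (0.99), Kif20a (1.21) and Mcm4 (0.83), each at adjusted p = 0.0384. Ikzf3, a B lineage factor, also passed (1.46, adjusted p = 0.0489); it and Cd8b1 were picked after their values were seen. The genotype difference was lower at 6 than at 2 months, by -0.82 for Lef1 (adjusted p = 0.0383), -2.51 for Cox6a2 (0.0388), -0.68 for Fmod (0.0384), -0.75 for Sox9 (0.0383) and -1.01 for Mkx (0.0474). The 14 genes were picked by their statistic at 6 months, which shares arrays with this test, so their number is not a count to read. No array could be tested as an outlier in groups of 2.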

How the results depend on the processing

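At 6 months the 5 calls became 3 with a filter at the 50th percentile, which leaves Dntt and Pax5 out of the fit, and 2 to 5 when each array was left out; no other setting run moved the count by over 1.5 times. At 2 months leaving out arrays gave 0 to 1 calls. The difference between the ages gave 1 call, Dntt, with trend and robust, 1 with an adjusted p below 0.1 and 0 to 1 when arrays were left out. Age in ENT1-null tissue gave 5 with an adjusted p below 0.1 and 0 to 4 when arrays were left out; age in WT gave 0 throughout.

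No pairing is stated, and deviations of same-numbered arrays correlated from -0.395 to 0.415. With the replicate block, limma called 5 of the genes at 6 months, 0 at 2 months and 2 with age in ENT1-null tissue, where Cd79b was lost; over all genes it called 1 at 2 months (main 106), 353 for the difference between the ages (main 691) and 5700 at 6 months (main 6022).

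Signs that turned were all of values that did not pass. Ebf1 at 6 months became 0.020 with centring and ran from -0.10 to 0.068 when arrays were left out. Ebf1 likewise ran from -0.030 to 0.31 at 2 months, from -0.33 to 0.015 for the difference between the ages, from -0.040 to 0.13 with age in WT and from -0.29 to 0.058 with age in ENT1-null tissue. Cd79b at 2 months ran from -0.054 to 1.16. With age in WT, Igll1 ran from -0.64 to 0.88, Cd79a from -0.071 to 0.74, Cd79b from -0.41 to 0.81 and Pax5 from -0.16 to 0.15. Vpreb1 with no filter at 6 months became -0.051 without the 6-month WT replicate 1 and -0.075 without the ENT1-null replicate 1. The cause was not tested.

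Counts over all genes were less stable. At 2 months they were 29 with no filter, 35 with all probe sets, 161 with centring, 259 with trend and robust, 0 with only the arrays compared, 823 at an adjusted p below 0.1 and 0 to 358 with arrays left out. The difference between the ages gave 11 with no filter, 1102 with trend and robust, 2383 at an adjusted p below 0.1 and 0 to 319 with arrays left out. The 6-month count was 3670 without the 6-month WT replicate 2. Centring changed the split of higher and lower genes at 2 months from 46 and 60 to 96 and 65, and a second quantile normalization the split for the difference between the ages from 398 and 293 to 299 and 407. The file gives no signal over background, so how far dim genes such as Vpreb1, Rag2 and Dntt were limited by it was not tested.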
